A study of Rattus norvegicus with 32 samples.

Results

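The anterior pituitary is the endocrine gland below the hypothalamus, and 10 of its genes were followed across the series: the hormone genes *Gh1*, *Prl*, *Pomc*, *Cga*, *Tshb*, *Lhb* and *Fshb* and the receptor genes *Gnrhr*, *Sstr2* and *Sstr5*. The genes were chosen by name, and a probe set was taken when its only gene symbol was one of these names. All 10 genes were found, each with 1 probe set, among 14824 probe sets with a single symbol (14557 distinct symbols). Values are RMA intensities on the log2 scale, so a difference of 1 is a doubling. A gene was tested when at least 1 of 24 arrays reached an intensity of 20, which is 4.322 on the log2 scale and is called the minimum below. All 10 genes passed, but *Sstr5* reached the minimum on only 2 arrays, KO 1 and HET 2 of those labelled olfactory bulbs.

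Affymetrix Rat Gene 2.1 ST arrays had been hybridized with RNA of *Csf1r* -/- (KO), *Csf1r* +/- (HET) and *Csf1r* +/+ (WT) rats, with 2 arrays per genotype for hippocampus, striatum, olfactory bulbs, pituitary gland and spleen, and with RNA of *Csf1r* +/+ bone marrow-derived macrophages (BMDM) on 2 more. The tissue donors are labelled as adult females of strain DA/SD and the BMDM donors as adult males of strain DA. *Csf1r* encodes the receptor for the macrophage growth factors CSF1 and IL-34, and all KO and HET rats descended from 1 targeted embryonic stem cell clone. Tissues came from nonperfused rats, 2 per genotype according to the methods, and the labels call the arrays of a genotype biological replicates without tying a replicate number to a rat. The limma p-values weigh a difference against the spread between the 2 arrays of a group. That spread was pooled for each gene over the 12 groups of the 24 arrays tested and moderated by limma over all genes. The p-values for the arrays labelled olfactory bulbs thus also rest on the spread on the other arrays. The labels give no stage of the estrous cycle, over which gonadotrope transcripts are known to change in female rats.

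The tissue label and the transcripts disagreed for 12 arrays. On the 6 arrays labelled olfactory bulbs, all 8 measured anterior pituitary markers (of 10 listed; the hormone genes themselves and the factor *Pitx1*) were at or above the minimum, with a summed intensity of 21418 to 23291 in KO, 20692 to 21615 in HET and 20017 to 21644 in WT. Of 6 measured olfactory bulb neuron markers (of 9 listed), 2 to 3 were at or above the minimum there, and their summed intensity was 723.2 to 879.8 in KO, 747.4 to 988.0 in HET and 731.5 to 895.9 in WT. *Cdhr1* (8.37 to 9.44) and *Doc2g* (6.93 to 8.60) made up most of it, while *Gad2*, *Th* and *Tbx21* were below the minimum on all 6 arrays. On the 6 arrays labelled pituitary gland, the same anterior pituitary sum was 174.0 to 429.6 in KO, 216.6 to 1101 in HET and 382.2 to 479.2 in WT, and all 6 olfactory bulb neuron markers were at or above the minimum, summing to 5449 to 5739 in KO, 5409 to 6130 in HET and 5583 to 5785 in WT. The free-text description of both sets of arrays names the striatum instead. Every array keeps its deposited label here, and the genotype comparison of the hormone genes rests on the arrays that carry the olfactory bulbs label. There *Csf1r* itself had 3.43 and 3.07 in KO, 7.79 and 7.59 in HET and 7.63 and 7.74 in WT. The summed intensity of 9 measured macrophage and microglia markers was 76.7 to 115.0 in KO, 1002 to 1575 in HET and 953.6 to 1456 in WT.

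Each hormone cell of the anterior pituitary makes its own product: somatotropes growth hormone, lactotropes prolactin, corticotropes proopiomelanocortin (the precursor of ACTH), thyrotropes TSH and gonadotropes LH and FSH. TSH, LH and FSH are pairs of a shared α subunit, encoded by *Cga*, and a β subunit of their own. Hypothalamic releasing hormones drive most of these cells and somatostatin restrains some of them, through receptors on the cell surface.

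RefSeq promoter windows (rat assembly GRCr8, 250 bases before to 50 after the annotated start) were at hand for 8 of the 10 genes, not for *Gh1* and *Fshb*. The windows of *Cga*, *Tshb*, *Lhb* and *Gnrhr* are shown because these genes encode glycoprotein hormone subunits and the gonadotrope receptor for gonadotropin-releasing hormone, and *Cga* and *Tshb* were steady between arrays of a genotype while *Lhb* and *Gnrhr* were not. They lie at chr5:54283090-54283389 (plus strand, *Cga*), chr2:192918005-192918304 (minus strand, *Tshb*), chr1:105037207-105037506 (plus strand, *Lhb*, the first listed of 2 windows) and chr14:22211416-22211715 (plus strand, *Gnrhr*). Capitals mark every match, on either strand, to the TATA box TATAAA, to TGNCCTTG, the site of the gonadotrope factor NR5A1, and to ATGNATA, the site of the lineage factor POU1F1.
Cga: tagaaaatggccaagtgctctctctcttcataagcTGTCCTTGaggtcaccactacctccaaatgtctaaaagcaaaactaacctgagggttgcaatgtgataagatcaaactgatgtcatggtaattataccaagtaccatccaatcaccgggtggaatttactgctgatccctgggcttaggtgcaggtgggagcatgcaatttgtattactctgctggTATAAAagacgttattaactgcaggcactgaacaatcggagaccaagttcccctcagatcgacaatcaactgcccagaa
Tshb: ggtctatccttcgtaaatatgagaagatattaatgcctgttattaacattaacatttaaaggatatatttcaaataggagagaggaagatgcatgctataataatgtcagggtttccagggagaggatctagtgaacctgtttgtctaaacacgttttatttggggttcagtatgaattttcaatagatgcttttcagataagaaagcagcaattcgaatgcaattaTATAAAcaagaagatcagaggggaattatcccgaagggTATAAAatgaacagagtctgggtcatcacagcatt
Lhb: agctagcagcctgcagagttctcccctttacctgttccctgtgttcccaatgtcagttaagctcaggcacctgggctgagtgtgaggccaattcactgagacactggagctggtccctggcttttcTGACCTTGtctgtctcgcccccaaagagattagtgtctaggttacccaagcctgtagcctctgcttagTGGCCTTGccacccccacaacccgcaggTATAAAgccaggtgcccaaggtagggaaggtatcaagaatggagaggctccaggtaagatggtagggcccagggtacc
Gnrhr: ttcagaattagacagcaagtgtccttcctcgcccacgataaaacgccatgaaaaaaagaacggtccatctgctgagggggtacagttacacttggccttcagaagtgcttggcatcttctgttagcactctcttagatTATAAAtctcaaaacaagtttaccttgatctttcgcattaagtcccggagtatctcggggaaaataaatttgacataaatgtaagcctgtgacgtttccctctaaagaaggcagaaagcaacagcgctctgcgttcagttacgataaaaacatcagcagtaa
TATAAA began 29 bases before the start in *Cga*, 23 in *Tshb*, 28 in *Lhb* and 112 in *Gnrhr*, and *Tshb* held a further copy 15 bases after it. TGNCCTTG matched once in *Cga*, 215 bases before the start, and at 124 and 56 bases before it in *Lhb*, and in none of the other 6 windows. ATGNATA matched in *Prl* alone. TATAAA was held by 6 of the 8 windows of these genes against 14.2% of all 33469 promoter windows of the same length, TGNCCTTG by 2 against 6.55% and ATGNATA by 1 against 9.88%. A match is a description of the letters only.

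Against WT, no hormone or receptor gene passed the test in KO on the arrays labelled olfactory bulbs. The count was 0 of 10 after Benjamini-Hochberg adjustment over all genes (limma, adjusted p at or above 0.278), against 193 of 10663 genes, 1.81% of all tested (81 higher, 0.76%, and 112 lower, 1.05%). At an unadjusted p under 0.05 it was 1 of 10, *Lhb*, against 14.2% of all genes, and by the methods' t-test it was 0 at that level. Both KO arrays lay above both WT arrays for 3 of the 10 genes (*Pomc*, *Tshb* and *Sstr5*) and below them for 1 (*Lhb*), against 27.7% and 19.2% of all genes. The median KO minus WT difference of the 10 genes was 0.08, beside 0.05 for all genes.

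**Figure D1:**
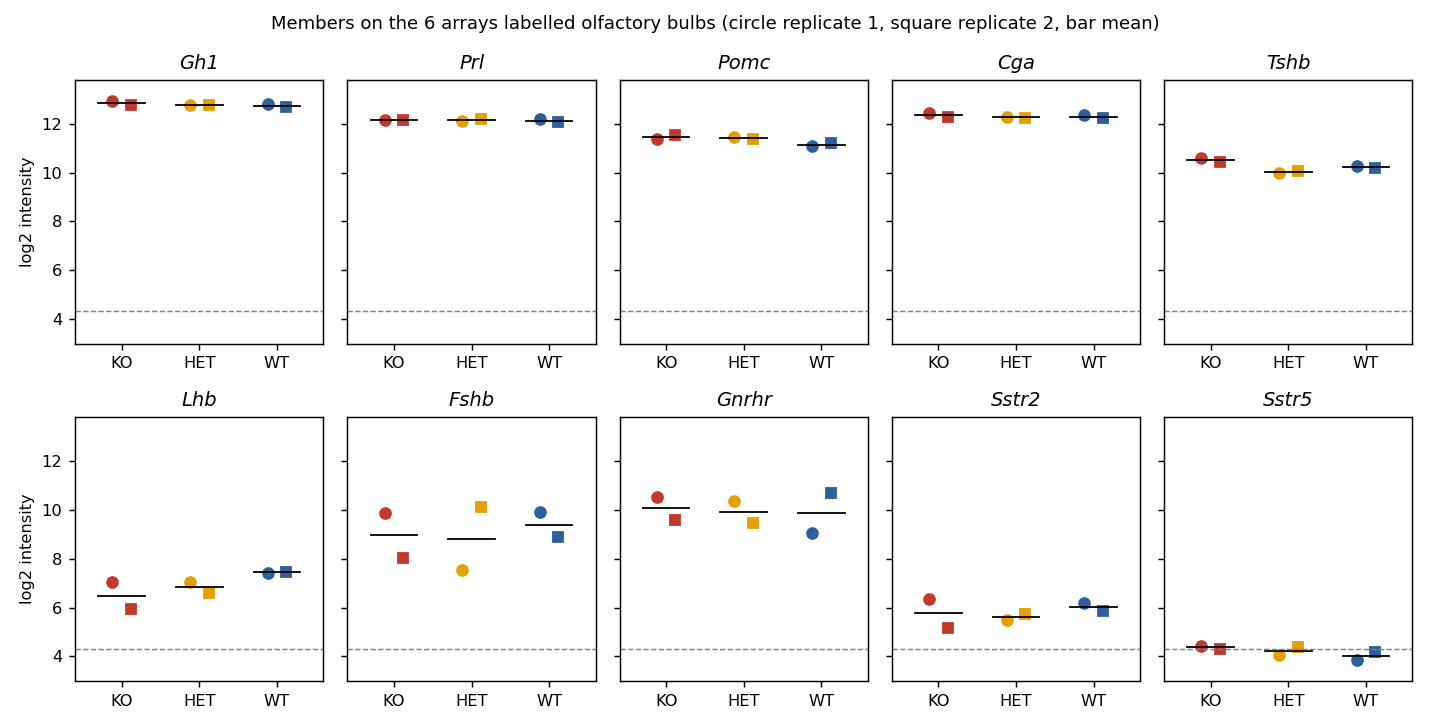
Log2 intensity (y axis, shared) of the 10 genes on the 6 arrays labelled olfactory bulbs, by genotype (x axis: KO, HET, WT), with a circle for replicate 1, a square for replicate 2, a bar for the mean and a dashed line at the minimum. The genes of the upper row move little between the arrays of a genotype, while *Fshb* spans 7.54 to 10.11 with its 2 extremes both in HET.

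*Gh1*, growth hormone, had 12.91 and 12.76 in KO, 12.75 and 12.77 in HET and 12.79 and 12.68 in WT. The KO and WT arrays overlapped, and the difference was 0.10 (SE 0.602, 95% CI -1.18 to 1.38, adjusted p = 0.970). *Prl*, prolactin, had 12.16 on both KO arrays, 12.11 and 12.17 in HET and 12.18 and 12.07 in WT. All 6 *Prl* values lay within a 1.08-fold range, and KO minus WT was 0.04 (SE 1.14, 95% CI -2.38 to 2.46, adjusted p = 0.994). In this fit the 24 arrays share 1 variance per gene, and both transcripts varied more on the other arrays. Over the 6 arrays alone the intervals were -0.26 to 0.45 for *Gh1* and -0.30 to 0.38 for *Prl*. *Gh1* ranked 1st or 2nd and *Prl* 14th to 39th of 36685 probe sets on these arrays, close to the top of the intensity scale.

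*Pomc*, made by corticotropes and by the melanotropes of the intermediate lobe, had 11.38 and 11.52 in KO, 11.44 and 11.36 in HET and 11.10 and 11.19 in WT. The KO arrays and the HET arrays each lay above both WT arrays. KO minus WT was 0.31 (SE 0.261, 95% CI -0.25 to 0.86, adjusted p = 0.652), and HET minus WT was 0.25 (adjusted p = 0.999). The 6 arrays alone gave an interval of -0.05 to 0.66 for KO minus WT. The 3 measured intermediate lobe markers of 4 listed, *Pomc* among them, summed to 4529 to 5542 in KO, 4871 to 5304 in HET and 4160 to 4784 in WT. Their part in the *Pomc* values was not tested. Here and for every gene, fewer cells of a type and less RNA per cell cannot be told apart.

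*Cga*, the shared α subunit, had 12.42 and 12.28 in KO, 12.29 and 12.23 in HET and 12.34 and 12.22 in WT. The genotypes overlapped, with KO minus WT at 0.07 (SE 0.423, 95% CI -0.83 to 0.97, adjusted p = 0.968) and an interval of -0.28 to 0.43 over the 6 arrays alone. *Tshb*, the β subunit of thyrotropin, had 10.59 and 10.45 in KO, 9.997 and 10.08 in HET and 10.29 and 10.17 in WT. The KO arrays were the highest and the HET arrays the lowest, without overlap between any of the genotypes. KO minus WT for *Tshb* was 0.29 (SE 0.341, 95% CI -0.43 to 1.02, adjusted p = 0.765), and KO minus HET was 0.48 (95% CI -0.24 to 1.21, adjusted p = 0.654). Over the 6 arrays alone the interval of KO minus WT for *Tshb* was -0.07 to 0.65.

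The gonadotrope genes had other patterns. *Lhb*, the β subunit of luteinizing hormone, had 7.04 and 5.95 in KO, 7.05 and 6.60 in HET and 7.43 and 7.48 in WT. The WT arrays were the highest, and KO 2 stood apart at the low end. KO minus WT was -0.96 (SE 0.404, 95% CI -1.82 to -0.10), or 0.283 to 0.931 times the WT level, with an unadjusted p = 0.0304 and an adjusted p = 0.278 (limma). Without KO 2 the difference was -0.41, and without KO 1 it was -1.51, neither of which passed. *Fshb*, the β subunit of follicle-stimulating hormone, had 9.89 and 8.04 in KO, 7.54 and 10.11 in HET and 9.89 and 8.88 in WT. Each genotype held a high and a low array, and KO minus WT was -0.43 (SE 0.636, 95% CI -1.78 to 0.93, adjusted p = 0.828), with an interval of -2.75 to 1.90 over the 6 arrays alone. *Gnrhr*, the receptor through which gonadotropin-releasing hormone acts on gonadotropes, had 10.52 and 9.61 in KO, 10.38 and 9.48 in HET and 9.06 and 10.68 in WT. KO minus WT was 0.19 (SE 0.750, 95% CI -1.40 to 1.78, adjusted p = 0.948). The high arrays of *Fshb* were KO 1, HET 2 and WT 1, and those of *Gnrhr* were KO 1, HET 1 and WT 2, so the genes did not share their order outside KO.

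The somatostatin receptors were at lower values. *Sstr2* had 6.36 and 5.18 in KO, 5.50 and 5.73 in HET and 6.19 and 5.87 in WT. KO 1 was the highest and KO 2 the lowest of the 6 arrays, and KO minus WT was -0.26 (SE 0.487, 95% CI -1.30 to 0.77, adjusted p = 0.868). *Sstr5* had 4.44 and 4.30 in KO, 4.07 and 4.38 in HET and 3.84 and 4.18 in WT. Its KO arrays lay above its WT arrays, 0.36 apart (SE 0.268, 95% CI -0.21 to 0.93, adjusted p = 0.594), but 4 of the 6 values were below the minimum.

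**Figure D2:**
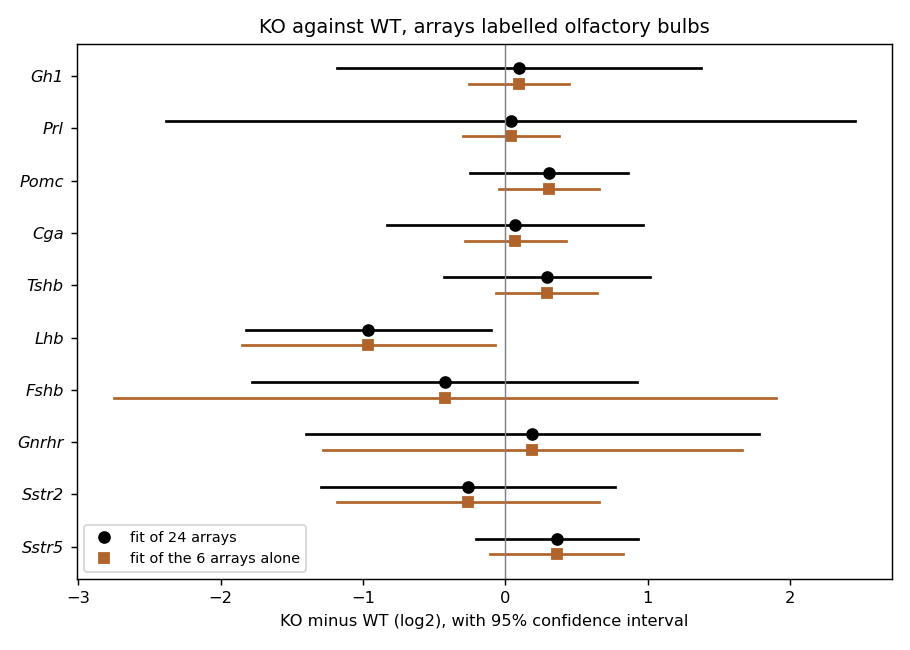
KO minus WT difference of each gene (x axis, log2) on the arrays labelled olfactory bulbs, with 95% confidence intervals, from the fit of 24 arrays (circles) and of the 6 arrays alone (squares). Only the *Lhb* intervals, -1.82 to -0.10 and -1.85 to -0.07, do not include 0, and the *Gh1* and *Prl* intervals are narrower in the fit of 6 arrays.

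HET rats gave no calls. None of the 10 genes passed in HET against WT, nor did any of the 10663 genes (0%), with 3.95% of genes and 0 of the 10 at an unadjusted p under 0.05. HET lay above WT without overlap for *Pomc* and below it for *Tshb*, *Lhb* and *Sstr2*, against 14.4% and 13.6% of all genes. KO against HET gave 0 of 10, against 217 of 10663 genes (2.04%), with 0 of 10 and 12.8% of genes at an unadjusted p under 0.05. *Tshb* alone did not overlap, higher in KO, against 27.5% of all genes higher and 21.6% lower without overlap.

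The spread between the 2 arrays of a genotype divided the genes. Its pooled SD on the log2 scale was 0.0505 for *Prl*, 0.0757 for *Gh1*, 0.0766 for *Pomc*, 0.0803 for *Cga* and 0.0814 for *Tshb*, below the median of 0.190 over all genes tested. *Sstr5* stood near that median with 0.195. The SD was 0.485 for *Lhb*, 0.506 for *Sstr2*, 0.842 for *Gnrhr* and 1.35 for *Fshb*, and 99.7% of genes had a smaller spread than *Fshb*, which ranked 32nd of 10663. Over all 6 arrays, *Fshb* spanned 5.91-fold, *Gnrhr* 3.07-fold, *Lhb* 2.89-fold and *Sstr2* 2.26-fold, while *Cga*, which gonadotropes share with thyrotropes, spanned 1.15-fold. *Cga* ranked 6th to 11th of 36685 probe sets on these arrays.

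**Figure D3:**
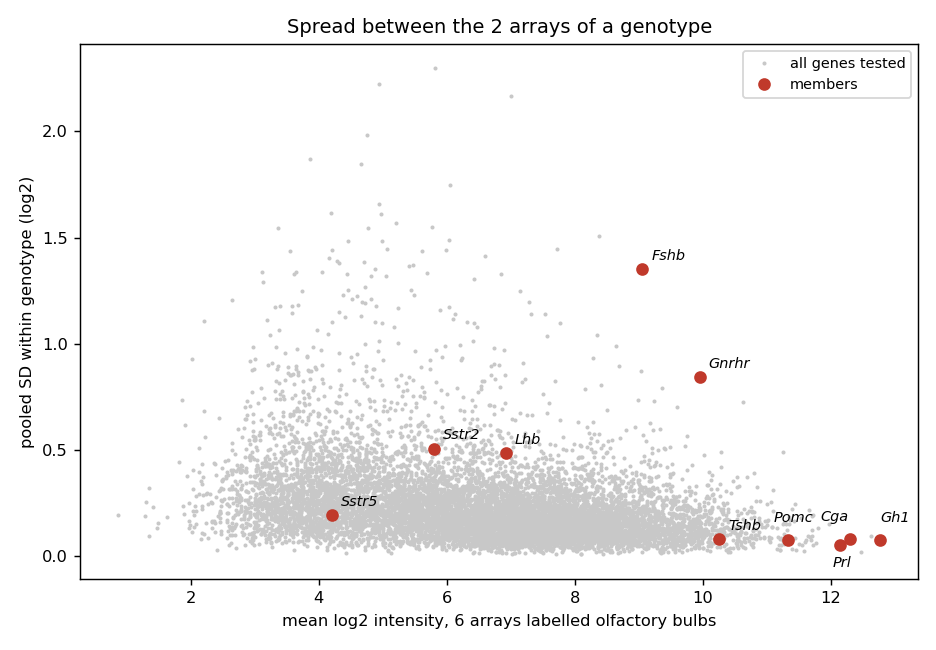
Pooled SD between the 2 arrays of a genotype (y axis, log2) against the mean log2 intensity on the 6 arrays labelled olfactory bulbs (x axis), for all genes tested (grey) and the 10 genes (red, named). *Fshb* (1.35) and *Gnrhr* (0.842) lie above nearly all genes of like intensity, and *Prl*, *Cga*, *Gh1*, *Pomc* and *Tshb* lie at the bottom.

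Across the 24 brain-set arrays, the levels followed the label. As a description, since the arrays labelled olfactory bulbs were singled out because they hold these transcripts, *Tshb* was 8.14 higher there than the mean of the other 18 arrays, *Cga* 8.03, *Pomc* 7.61, *Gh1* 7.56, *Gnrhr* 6.61, *Prl* 6.22, *Fshb* 6.18 and *Lhb* 2.42 (log2 differences), without overlap. For *Lhb* the margin was thin: its lowest value there was 5.95 and its highest elsewhere, on the hippocampus array KO 2, was 5.94. *Sstr5* (0.78) and *Sstr2* (0.11) overlapped with the other arrays. *Sstr2*, the somatostatin receptor that is also made by many neurons, was at 6.71 to 7.34 in hippocampus, 5.67 to 7.72 in striatum, 5.18 to 6.36 on the arrays labelled olfactory bulbs and 3.38 to 4.28 on those labelled pituitary gland. Hippocampus and striatum overlapped in this order, as did striatum and the arrays labelled olfactory bulbs, while the arrays labelled pituitary gland stood below all others. On the 8 spleen and BMDM arrays, which were normalized apart, no gene of the 10 reached the minimum on any array (1.96 to 4.002).

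**Figure D4:**
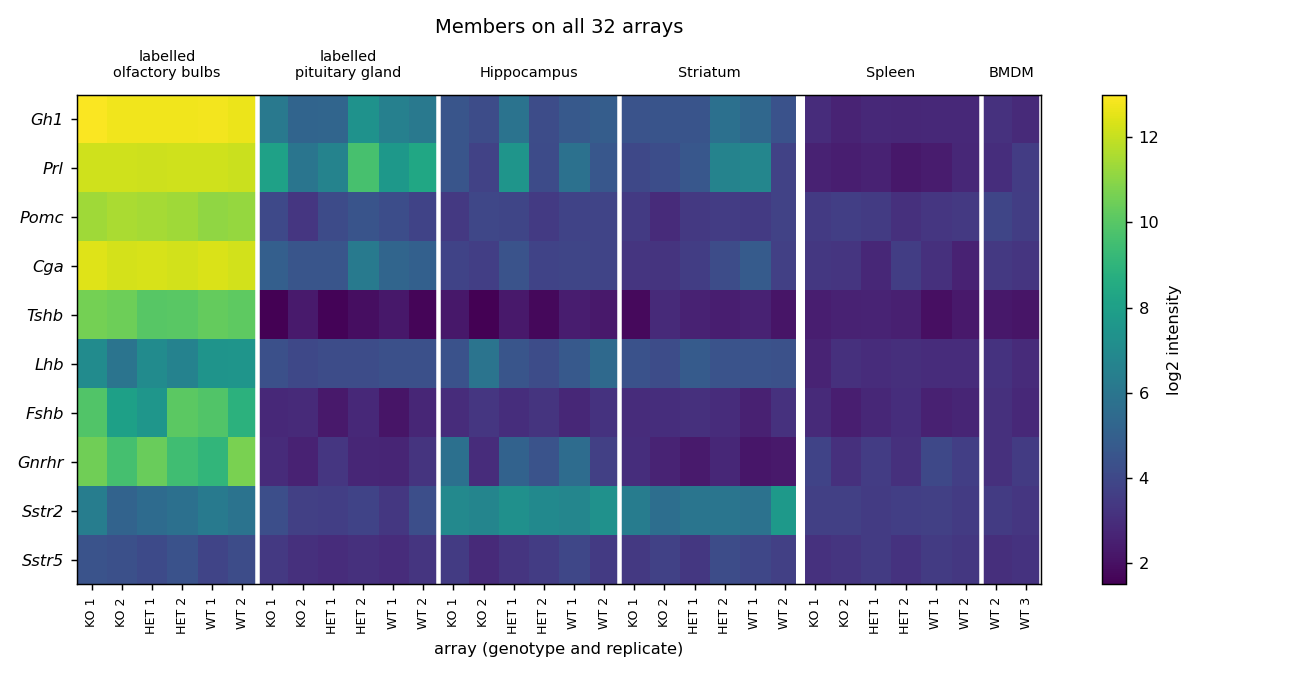
Log2 intensity (colour) of the 10 genes (rows) on all 32 arrays (columns, by tissue label, then KO, HET and WT). The 6 arrays labelled olfactory bulbs carry the hormone transcripts, *Prl* reaches 9.64 on 1 array labelled pituitary gland, and *Sstr2* is spread over hippocampus and striatum; the 8 arrays on the right were normalized apart.

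Traces of the hormone transcripts were found on other arrays. *Gh1* was at or above the minimum on 16 of the 18 other brain-set arrays, *Prl* on 13, *Lhb* and *Sstr2* on 12 each, *Cga* on 8, *Gnrhr* on 4, *Pomc* on 1 and *Tshb*, *Fshb* and *Sstr5* on 0. On the 24 brain-set arrays 45.3 to 51.5% of all probe sets reached the minimum, so a value just above it does not show a trace. *Gh1* in striatum KO (4.44 and 4.47) was such a value. On the arrays labelled pituitary gland, *Prl* had 8.09 and 5.96 in KO, 6.65 and 9.64 in HET and 7.63 and 8.33 in WT. *Gh1* had 6.15 and 5.23 in KO, 5.27 and 7.37 in HET and 6.51 and 6.16 in WT on them, and *Cga* had 4.96 and 4.54 in KO, 4.53 and 6.26 in HET and 5.24 and 5.04 in WT. HET 2 was the highest of these 6 arrays for all 3 transcripts, and also for *Pomc*, at 4.50.

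In hippocampus, *Prl* had 4.52 and 3.76 in KO, 7.48 and 4.11 in HET and 5.79 and 4.62 in WT, and HET 1 was also the highest for *Gh1* (5.90) and *Cga* (4.45). In striatum, *Prl* had 3.99 and 4.20 in KO, 4.63 and 6.63 in HET and 6.77 and 3.78 in WT. *Gh1* was at 5.74 on striatum HET 2 and 5.32 on striatum WT 1, the 2 arrays where *Prl* was high. At each of the 3 labels the array with the highest *Prl* was a HET or a WT array, but each genotype had only 2 arrays there. On the arrays labelled pituitary gland, *Prl* on KO 1 (8.09) was above HET 1 (6.65) and WT 1 (7.63) and below HET 2 (9.64) and WT 2 (8.33).

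**Figure D5:**
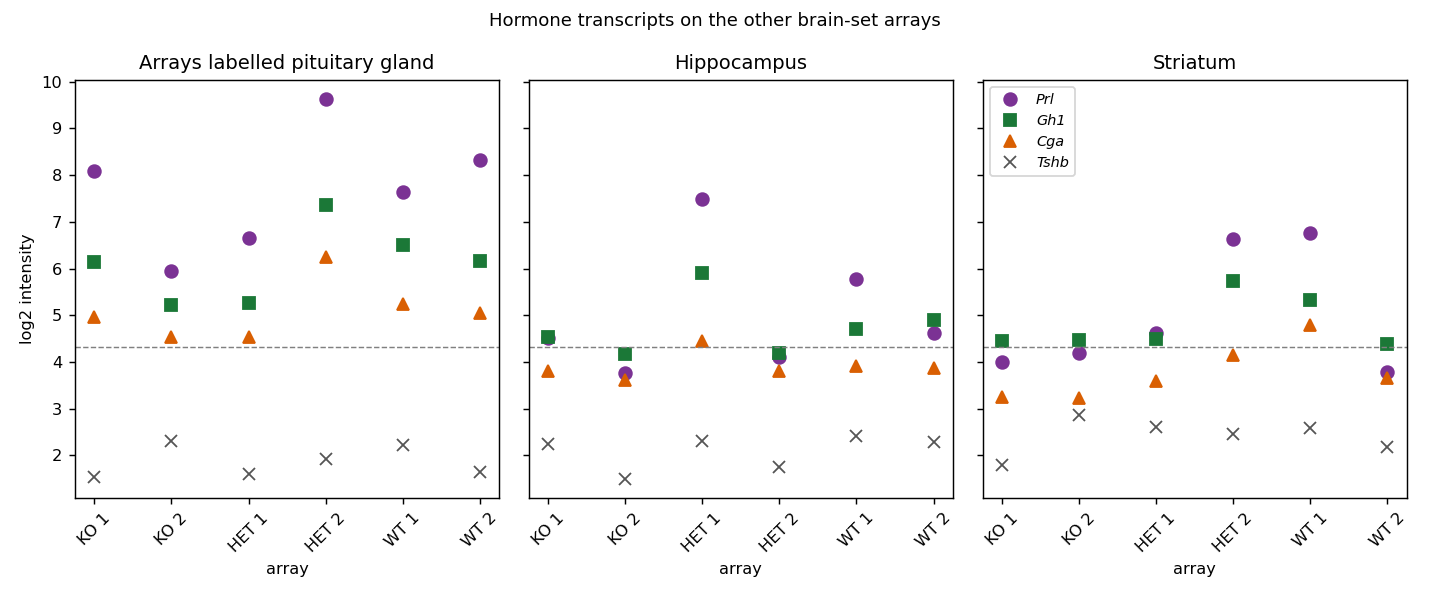
Log2 intensity (y axis) of *Prl*, *Gh1*, *Cga* and *Tshb* on the arrays labelled pituitary gland, hippocampus and striatum (x axis: KO, HET and WT replicates), with the minimum dashed. *Prl* and *Gh1* are high on the same arrays, such as HET 2 among those labelled pituitary gland (9.64 and 7.37), while *Tshb* stays below the minimum on all 18.

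The traces did not pass a test by genotype. In KO against WT, 0 of 10 genes passed in hippocampus (65 of 10663 genes, 0.61%), in striatum (73 genes, 0.685%) and on the arrays labelled pituitary gland (100 genes, 0.938%). At an unadjusted p under 0.05 the counts were 0 in hippocampus (8.67% of all genes), 1 in striatum (6.85%) and 0 on the arrays labelled pituitary gland (6.11%). KO lay below WT without overlap for 4 genes in hippocampus (*Gh1*, *Prl*, *Cga* and *Tshb*; 23.5% of all genes), 2 in striatum (14.6%) and 2 on the arrays labelled pituitary gland (*Gh1* and *Cga*; 25%). It lay above WT for 0 genes in hippocampus (5.96%), 1 in striatum (24.4%) and 1 on the arrays labelled pituitary gland (16.4%). In hippocampus *Cga* and *Tshb* were below the minimum on all KO and WT arrays, and the median difference over all genes was -0.13. *Prl* was -1.06 in KO relative to WT in hippocampus (95% CI -3.48 to 1.36), -1.18 in striatum (95% CI -3.60 to 1.24) and -0.96 on the arrays labelled pituitary gland (95% CI -3.38 to 1.46). *Gh1* was -0.45 in KO relative to WT in hippocampus, -0.40 in striatum and -0.65 on the arrays labelled pituitary gland, and both genes fell short of the test at every label. *Cga* in striatum had the smallest p among them, with 3.26 and 3.23 in KO against 4.80 and 3.67 in WT (unadjusted p = 0.0333, adjusted p = 0.653), and only WT 1 was above the minimum. Whether the KO effect differed between the 4 labels was tested for each gene with a moderated F test, and 0 of 10 genes passed (adjusted p at or above 0.733), against 16 of 10663 genes (0.15%).

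*Gnrhr* and *Lhb* had a pattern of their own in hippocampus. *Gnrhr* had 5.76 and 2.94 in KO, 5.12 and 4.44 in HET and 5.55 and 3.70 in WT, and lay at 2.21 to 3.32 on all arrays labelled striatum or pituitary gland. *Lhb* had 4.38 and 5.94 in KO, 4.55 and 4.19 in HET and 4.71 and 5.41 in WT. KO 2 and WT 2 were thus the lowest for *Gnrhr* and the highest for *Lhb*. On these 2 arrays the mean log2 intensity of 7 choroid plexus markers (*Ttr* among them, a list chosen after these arrays had been seen) was 9.83 (KO 2) and 9.81 (WT 2), against 4.48 on KO 1, 5.13 and 4.64 in HET and 4.80 on WT 1. Their part in the *Gnrhr* and *Lhb* values was not tested.

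The genes whose values over the 24 arrays followed the mean of the 10 genes most closely were *Six6* (Pearson r = 0.988), *Irx6* (0.987), *Irs4* (0.987), *Morc4* (0.986), *Asb4* (0.986), *Lats1* (0.985), *Eif2ak4* (0.985) and *Vsig10* (0.984). These correlations are across arrays that differ in tissue. *Six6*, a homeobox factor of the developing pituitary and eye, was at 9.97 to 10.59 on the arrays labelled olfactory bulbs and at 3.57 to 4.46 elsewhere, while *Lats1*, a kinase of the Hippo pathway, was at 8.76 to 8.92 on the arrays labelled olfactory bulbs and at 7.49 to 7.81 elsewhere.

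The wider pituitary network was read on the same 6 arrays, KO against WT, and 2 of the 70 genes tested in 9 lists passed (*Nr3c1* and *Gal*), where 1.81% of all genes did (0.76% higher and 1.05% lower). Of 13 measured transcription factors of the pituitary lineages (of 20 listed) 0 passed, with a median difference of 0.48. The medians of the other lists were 0.23 (other receptors), 0.30 (feedback receptors), 0.24 (activin and inhibin), 0.12 (granules), 0.00 (hypothalamic hormones), 0.54 (thyroid and steroid handling), 0.25 (proliferation) and -1.13 (estrogen-responsive), beside 0.05 for all genes. The feedback, thyroid and steroid, and estrogen-responsive lists had 3 tested genes each, so each median is the value of 1 gene. The -1.13 is that of *Vip*, which reached the minimum only on HET 2 (4.46) and WT 1 (4.33). Of the other estrogen-responsive genes, *Gal* is described below and *Cckbr* was at -0.10. Among the transcription factors *Sox2*, a factor of pituitary stem cells, had the smallest p, with 7.43 and 7.40 in KO, 6.74 and 6.58 in HET and 6.11 and 6.89 in WT (difference 0.91, adjusted p = 0.0654). Of 11 other receptors for hypothalamic factors (of 14) 0 passed, and the smallest p belonged to the VIP and PACAP receptor gene *Vipr2* (0.73, adjusted p = 0.227). *Drd2*, the dopamine receptor that restrains prolactin release, was at 10.34 and 10.79 in KO, 11.003 and 10.86 in HET and 10.73 and 10.95 in WT. Of 10 genes of the activin and inhibin system (of 11) 0 passed, the nearest being the inhibin coreceptor *Tgfbr3* (0.78, adjusted p = 0.0544). Of 12 genes of prohormone processing and secretory granules (of 15) 0 passed, the nearest being the prohormone convertase *Pcsk2*, at 9.14 and 9.69 in KO, 8.88 and 8.57 in HET and 8.05 and 8.88 in WT (0.95, adjusted p = 0.0826).

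*Nr3c1*, which encodes the glucocorticoid receptor through which corticosterone restrains corticotropes, was higher in KO. It was 1 of 3 measured feedback receptors (of 13 listed), at 8.26 and 8.18 in KO, 7.77 and 7.83 in HET and 7.47 and 7.79 in WT. Both KO arrays were above all others, and the difference from WT was 0.59 (SE 0.135, 95% CI 0.31 to 0.88, adjusted p = 0.0378 from limma). The call was lost without KO 1 (0.55, adjusted p = 0.235), KO 2 (0.64, adjusted p = 0.126) or WT 1 (0.43, adjusted p = 0.364) and over the 6 arrays alone (adjusted p = 0.234). The gene is made by most cell types. The neuron marker sum (4 of 7 measured) was 1650 to 2037 in KO, 1238 to 1302 in HET and 1069 to 1388 in WT on these arrays. The endothelium sum (2 of 4 measured) was 177.2 to 185.7 in KO, 146.2 to 169.5 in HET and 141.9 to 142.7 in WT, and the sum of 4 folliculostellate cell markers was 560.6 to 617.9 in KO, 441.4 to 566.1 in HET and 471.5 to 512.1 in WT. All 3 sums were higher in KO than in WT without overlap, where 27.7% of all genes were. The anterior pituitary, intermediate lobe, posterior lobe, olfactory bulb neuron, myelin and erythroid sums overlapped between KO and WT. The neuron sum was mainly *Syt1* and *Nefl*, while *Gad2* was below the minimum and *Slc17a7* overlapped between KO and WT. *Cldn5* was below the minimum, so the endothelium sum was mainly *Cdh5*. *Sox2* is itself 1 of the 4 folliculostellate markers. Of the others, *S100b* and *Anxa1* overlapped between KO and WT, and *Fst* was below the minimum. The part of the 3 sums in the list medians and in the *Nr3c1* and *Pcsk2* values was not tested. Nor was the part of the neuron and endothelium sums in the *Sox2* values.

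*Gal*, which encodes the neuropeptide galanin and is induced by estrogen in rat lactotropes, was lower in KO, 1 of 3 measured estrogen-responsive genes (of 6 listed). It had 6.04 and 6.17 in KO, 9.002 and 10.66 in HET and 10.84 and 7.55 in WT. Both KO arrays were below all HET and WT arrays, and the HET and WT arrays differed widely among themselves. KO minus WT was -3.09 (SE 0.730, 95% CI -4.64 to -1.54, adjusted p = 0.0429 from limma) and KO minus HET was -3.72 (adjusted p = 0.0120), where 1.33% of all genes were called lower, and the KO minus HET call was lost with the replicate number as a block (adjusted p = 0.0517). The KO minus WT call was lost without WT 1 (-1.44, adjusted p = 0.486), KO 1 (-3.02, adjusted p = 0.217) or KO 2 (-3.15, adjusted p = 0.167), and over the 6 arrays alone (adjusted p = 0.298). On the other labels *Gal* differed between KO and WT by -0.54 to 0.05, and the test of a difference between labels gave an adjusted p = 0.507 for *Gal* and 0.276 for *Nr3c1*.

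The remaining lists held no calls. Of 9 hypothalamic hormone genes (of 10) 0 passed, with a smallest unadjusted p of 0.419 (*Trh*, limma). However, *Gnrh1*, *Sst*, *Trh*, *Crh*, *Adcyap1* and *Th* were below the minimum on all 6 arrays. *Kiss1*, whose difference was the list median, lay near the minimum (4.11 to 4.49). Only *Avp* and *Oxt* were well above it, so for the rest the list does not show whether the genes differ. Of 3 genes of thyroid and steroid hormone handling (of 8) 0 passed, the nearest being the thyroxine-activating deiodinase *Dio2*, at 7.09 and 6.95 in KO, 6.73 and 6.49 in HET and 6.41 and 6.54 in WT (0.54, adjusted p = 0.251). Of 6 proliferation genes (of 10) 0 passed, the nearest being the replication clamp *Pcna* (0.58, adjusted p = 0.204).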

How the data were processed

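RNA of the 32 samples was measured on 1-colour gene arrays (Affymetrix Rat Gene 2.1 ST). The authors normalized the arrays with RMA (version not given in the sources used here) and deposited linear intensities for 36685 probe sets, which were put on the log2 scale here. Pairs of arrays shared 8 to 132 identical values within the 24 hippocampus, striatum, olfactory bulbs and pituitary gland arrays, 61 to 161 within the 8 spleen and BMDM arrays and 0 to 1 across these sets, so tests stayed within the first set. Of the probe sets, 14824 carried a single symbol, 829 carried more than 1 and 21032 carried none, and only the first kind was named. Where a gene had more than 1 probe set, the brightest on average stood for it.

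limma 3.58.1 in R 4.3.3 was fitted to 12 groups of label and genotype (2 arrays each, 12 residual degrees of freedom) over 10663 genes, and a gene was called at 0.05 after the Benjamini-Hochberg procedure. The number of arrays, 2 per group, limits the precision. The median intensity of an array was 15.1 to 21.7 over these 24 arrays. On simulated data with the same design (10663 genes), the fit recovered 4 of 50 genes shifted by 0.5 (log2), 27 of 50 shifted by 1, 46 of 50 shifted by 2 and 50 of 50 shifted by 4, and called 3 of the 10463 genes left alone. The shifted genes were drawn at random from all genes, so these rates are not those of the 10 genes followed. The SE of KO minus WT for the 10 genes ran from 0.261 (*Pomc*) to 1.14 (*Prl*). The genes, lists and tests were chosen with earlier results of these data known. Named list genes are those that passed or, with none, the smallest p of a list; *Drd2* and the genes under other observations were picked after their values had been seen. Alternatives were a filter at 50 or none, averaged probe sets, a trended robust variance, repeated quantile normalization, fixed and random blocks, other sets of arrays, the methods' t-test, littermates as reference and leaving out each array. Replicate numbers were not taken to pair the samples, although the check of deviations from group means cannot show that same-numbered samples are unrelated. Arrays of different labels may come from the same rats, and the main fit and the F test treated the 24 arrays as independent. Promoters were read from RefSeq (GRCr8). Python 3.11.15 with pandas 2.3.3 and matplotlib 3.10.9 was used for the rest.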

Additional observations from a re-analysis of the deposited data

How the results depend on the processing

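The count of 0 of 10 genes called in KO against WT on the arrays labelled olfactory bulbs was the same under all 15 alternatives. The counts of 0 were also the same under the fewer alternatives run for the other comparisons: no filter, the replicate block and each array left out in turn among them, but only no filter for the difference between labels. Of 149 alternative values of single genes in that comparison, 141 kept their direction, 1 was 0 (*Cga* with quantile normalization repeated) and 7 that leave out 1 array changed sign: *Cga* -0.0026 without KO 1, *Gnrhr* -0.26 without KO 1 and -0.62 without WT 1, *Fshb* 0.50 without KO 2 and 0.08 without WT 1, *Sstr2* 0.33 without KO 2 and *Prl* -0.0137 without WT 2. With 1 array left out, the ranges were 0.02 to 0.17 for *Gh1*, 0.24 to 0.38 for *Pomc*, 0.22 to 0.36 for *Tshb*, -1.51 to -0.41 for *Lhb*, 0.19 to 0.53 for *Sstr5*, -0.0137 to 0.0926 for *Prl*, -0.0026 to 0.14 for *Cga*, -1.35 to 0.50 for *Fshb*, -0.62 to 1.00 for *Gnrhr* and -0.85 to 0.33 for *Sstr2*. *Sstr5* had no value with a filter at 50. The number of genes called over all genes, 193, was 17 in the 6 arrays alone, 105 without the arrays labelled pituitary gland, 0 by the methods' t-test (857 at an unadjusted p under 0.05), 363 with littermates as the reference and 74 to 671 when 1 array was left out (87 without KO 1, 74 without KO 2, 93 without WT 1 and 671 without WT 2). The *Gal* and *Nr3c1* calls, to which the same alternatives were applied after their values had been seen, held under 13 of 30 and were lost under 17, among them no filter (adjusted p = 0.0537 and 0.0594). Same-numbered arrays deviated from their group means with r = 0.06 (KO and HET), 0.06 (KO and WT) and -0.14 (HET and WT) on the arrays labelled olfactory bulbs. Over the other 3 labels r ran between -0.27 (KO and WT, striatum) and 0.45 (KO and WT, hippocampus). These values cannot show whether samples of the same number share more than that number. With the replicate block, 0 of 10 genes were called in each comparison and the adjusted p was 0.103 for *Gal* and 0.0529 for *Nr3c1* in KO against WT and 0.0517 for *Gal* in KO against HET, and 171 genes were called over all genes in KO against WT. With the WT numbers crossed in that block, added after the data had been seen, HET against WT gave 0 of 10 genes and 0 genes in all (485 at an unadjusted p under 0.05) and KO against WT in striatum 0 of 10 and 60 genes in all (66 uncrossed). The 95% intervals of the 10 genes in the comparison of KO with WT were 1.11 to 4.84 wide on the log2 scale.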

Other observations

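On the arrays labelled olfactory bulbs, the cell cycle genes *Cdk1*, *Ccnb1*, *Ccna2* and *Bub1*, which act in dividing cells, were high on HET 2. *Cdk1* had 4.98 and 4.77 in KO, 3.96 and 7.18 in HET and 3.95 and 4.12 in WT. *Ccna2* had 4.23 and 4.50 in KO, 3.58 and 7.32 in HET and 4.76 and 4.27 in WT. The other measured proliferation genes did not stand out there. *Mcm2* had 7.88 on HET 2 and 8.04 on WT 1, and *Pcna* had 9.21 on HET 2 and 9.13 on both KO arrays. HET 2 was also the array with the highest *Fshb* (10.11), and its *Gal* of 10.66 was next to the 10.84 of WT 1.

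*Avp* and *Oxt*, which encode the neurohypophysial hormones vasopressin and oxytocin, were detected on all 6 arrays. *Avp* had 9.56 and 6.76 in KO, 6.83 and 7.89 in HET and 6.70 and 8.60 in WT. *Oxt* had 8.37 and 7.07 in KO, 6.93 and 7.64 in HET and 7.36 and 8.08 in WT. KO 1 was the highest for both and WT 2 the next, and the summed intensity of 4 posterior lobe markers, these among them, was 326.5 to 1169 in KO, 296.5 to 495.3 in HET and 329.5 to 728.4 in WT. *Egr1*, a factor through which gonadotropin-releasing hormone induces *Lhb* in mice, was at 10.53 and 8.81 in KO, 9.17 and 9.30 in HET and 8.75 and 9.64 in WT, and KO 1 was again the highest while *Lhb* was highest in WT.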
